A study of Mus musculus with 4 samples.

Results

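The genes described here are 34 genes of the contractile apparatus, calcium handling and energy supply of skeletal muscle, followed through arrays made from epidermis of mouse hindpaw. They were listed by name as proteins of the muscle fibre. The list was made with earlier results of these data known, so counts over it are descriptions and not tests. All 34 were found among the 19938 genes that the arrays name. Each gene is measured by 1 probe set, a group of array probes whose platform annotation holds that gene symbol and no other. Of the list, 13 genes are known for fast fibres, 5 for slow fibres and 16 were not sorted by fibre type.

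The study compared mice carrying a noggin transgene with mice carrying a BMP4 transgene, each driven by the K14 promoter, which is active in basal keratinocytes. Noggin is a secreted protein that binds BMPs, the family of ligands to which BMP4 belongs. Epidermis of glabrous hindpaw skin was outlined on stained frozen sections and captured by laser, 8 to 10 strips per animal. Each line had 6 animals, and RNA pooled from 3 animals was hybridised to an array, which gave noggin replicates 1 and 2 and BMP4 replicates 1 and 2. A replicate is therefore a pool of different animals. The sources used here do not give the age or strain of the animals. No array of skin without a transgene was analysed here, so a level cannot be set against normal epidermis. Values are log2 intensities normalized with RMA, with array medians between 6.04 and 6.06, and a gap of 1 on this scale is a doubling.

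In skeletal muscle, myosin heavy and light chains form the thick filament, and actin, tropomyosin and the troponin complex form the thin filament. Calcium released from the sarcoplasmic reticulum binds troponin C, which lets myosin pull on actin. Fast and slow fibres use different genes for many of these parts. Epidermis is an epithelium without striated muscle fibres, which lie in the tissue beneath skin. Several members are not restricted to skeletal muscle: the slow genes Myh7, Myl2 and Tnnc1 are also used by heart, Des and Tpm2 by smooth muscle, and Pvalb by neurons.

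The starts of 26 of the 34 genes are held, in 33 windows, in the RefSeq promoter set for mouse build GRCm38.p6, each window running from 250 bases before a start to 50 after it. The windows of a shared actin gene, of the fast genes Myh4 and Mylpf and of the slow genes Myl2 and Tnnc1 are shown as examples from each class. All 5 were highest in noggin replicate 1 and lowest in BMP4 replicate 1, as were 29 of the 34 members. Of the slow genes, Myl2 and Tnnc1 had the widest gaps between these arrays, at 3.66 and 2.88. The 5 genes lie on different chromosomes and differed in the arrays between. Capitals mark matches on either strand to any of 5 motifs, which are the E-box CANNTG, the TATA box spelled TATAAA, the MCAT element spelled CATTCC, the CArG box and the MEF2 site. The windows, in the order printed, lie at chr8:123894726-123895025 on the minus strand, chr11:67237562-67237861 on the plus strand, chr7:127211358-127211657 on the plus strand, chr5:122092474-122092773 on the plus strand (the first of a pair of starts of Myl2) and chr14:31208062-31208361 on the plus strand.
Acta1: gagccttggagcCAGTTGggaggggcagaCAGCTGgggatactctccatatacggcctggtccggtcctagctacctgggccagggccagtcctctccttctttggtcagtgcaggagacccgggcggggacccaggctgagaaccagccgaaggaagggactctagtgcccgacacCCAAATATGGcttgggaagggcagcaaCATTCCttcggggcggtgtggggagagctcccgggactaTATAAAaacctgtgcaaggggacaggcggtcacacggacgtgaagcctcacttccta
Myh4: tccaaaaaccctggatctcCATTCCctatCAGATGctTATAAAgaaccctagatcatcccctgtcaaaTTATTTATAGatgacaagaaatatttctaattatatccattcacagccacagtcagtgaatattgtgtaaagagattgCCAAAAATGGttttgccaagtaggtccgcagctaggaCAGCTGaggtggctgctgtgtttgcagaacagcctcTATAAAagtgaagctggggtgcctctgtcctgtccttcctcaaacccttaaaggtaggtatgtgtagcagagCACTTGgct
Mylpf: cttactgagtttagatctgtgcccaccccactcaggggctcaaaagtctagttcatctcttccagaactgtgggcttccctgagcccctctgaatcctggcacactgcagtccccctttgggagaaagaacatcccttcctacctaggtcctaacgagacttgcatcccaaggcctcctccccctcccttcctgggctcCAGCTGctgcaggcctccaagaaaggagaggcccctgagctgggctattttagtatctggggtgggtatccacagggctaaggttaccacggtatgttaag
Myl2: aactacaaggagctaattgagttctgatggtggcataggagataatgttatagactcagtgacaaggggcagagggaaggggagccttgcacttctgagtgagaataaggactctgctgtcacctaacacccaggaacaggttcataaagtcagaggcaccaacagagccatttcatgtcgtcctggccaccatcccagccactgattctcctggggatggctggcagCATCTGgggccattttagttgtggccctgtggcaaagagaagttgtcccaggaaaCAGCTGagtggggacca
Tnnc1: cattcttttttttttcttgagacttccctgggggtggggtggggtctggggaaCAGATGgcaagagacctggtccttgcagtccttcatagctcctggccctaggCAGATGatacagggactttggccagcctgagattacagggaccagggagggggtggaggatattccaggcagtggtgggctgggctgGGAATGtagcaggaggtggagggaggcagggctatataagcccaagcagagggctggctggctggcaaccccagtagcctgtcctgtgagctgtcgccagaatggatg

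Acta1 has a CArG box, the sequence bound by serum response factor, 73 bases before its start. Myh4 holds a CArG box 104 bases and a MEF2 site 182 bases before its start, and TATAAA 31 bases before it. The E-box CAGCTG, which is 1 form of CANNTG and a known target of myogenic factors, stands in the windows of Acta1, Myh4, Mylpf and Myl2 printed above, and not in that of Tnnc1. Counted by gene, CAGCTG was in a window of 14 of the 26 members, against 18.3% of all 27025 genes with a window, and the wider CANNTG was in 22 of 26 against 75%. The MCAT element was in 9 of 26 members against 16.6% of genes, TATAAA in 7 against 15.7%, the MEF2 site in 5 against 3.7% and the CArG box in 3 against 1.81%. Some CArG boxes and MEF2 sites can share bases with TATAAA. These matches describe letters in the windows, and no binding was measured.

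Muscle genes were highest in noggin replicate 1 and lowest in BMP4 replicate 1, and the other noggin and BMP4 arrays lay between. Noggin replicate 1 was the highest array for 33 of the 34 genes, against 27.4% of all genes, and Des was the exception. BMP4 replicate 1 was the lowest for 30 of 34, against 25.9% of all genes, and 29 of 34 showed both, against 9.62%. Relative to each gene's mean over the arrays, the median over the 34 genes was 0.71 in noggin replicate 1, -0.09 in noggin replicate 2, -0.72 in BMP4 replicate 1 and 0.14 in BMP4 replicate 2 on the log2 scale. Over all genes the same medians lay between -0.018 and 0.011.

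Over the 34 genes, the median gap within each line was larger than the median difference between the lines. A gap is taken between single arrays and the difference between means of 2, so the measures are unlike. Among slow genes the noggin gap was smaller, with a median of 0.30 against a line difference of 0.60. The gap between noggin replicates 1 and 2 had a median of 0.69 over the 34 genes, and the gap between BMP4 replicates 2 and 1 had a median of 0.82. The median noggin minus BMP4 difference of group means was 0.60, against -0.0064 over all genes. In 33 of 34 members a gap between arrays of the same line exceeded the difference between the lines, against 78.1% of all genes, and Tpm2 was the exception. The intermediate arrays alone, chosen after the values were seen, were also set against each other. Noggin replicate 2 lay below BMP4 replicate 2 in 26 of 34 genes, with a median of -0.21, and 56.1% of all genes lay that way.

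**Figure D1:**
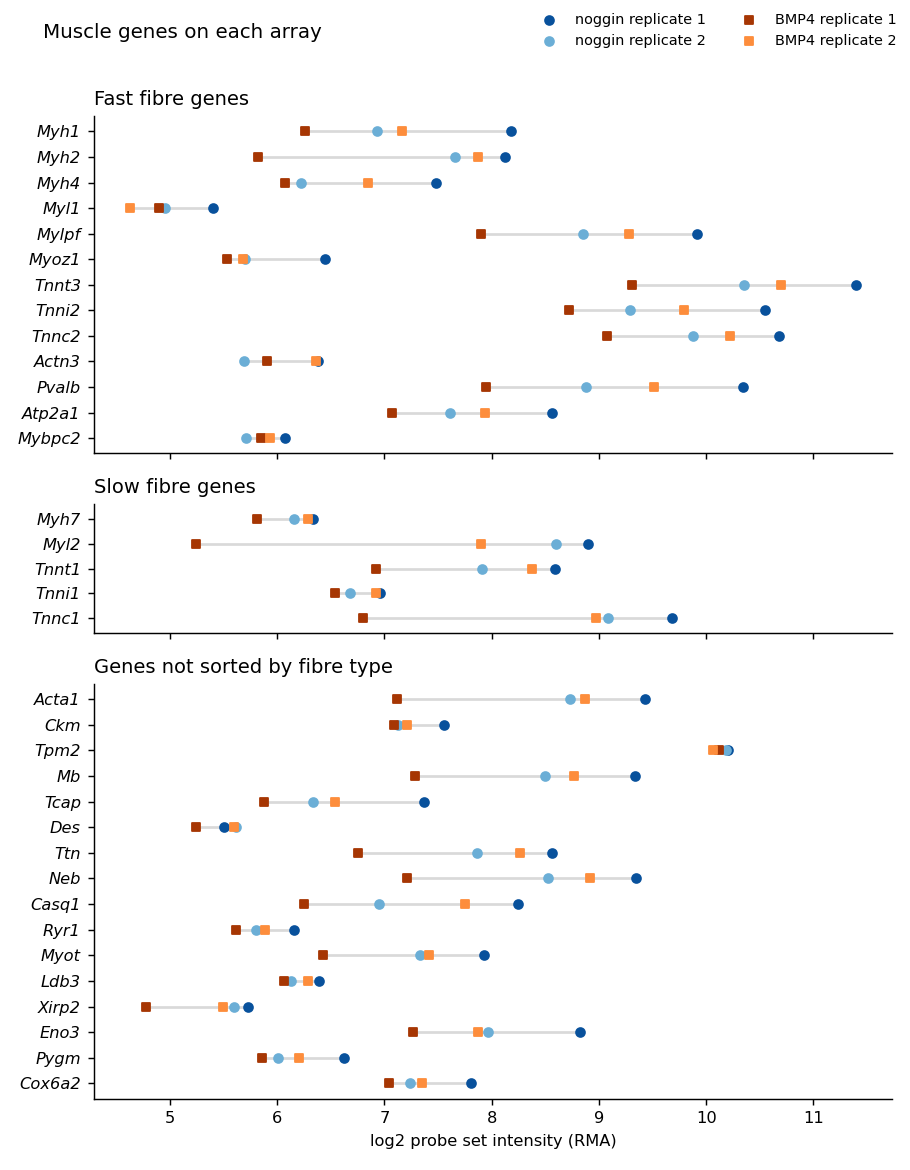
Log2 intensity of each of the 34 muscle genes on each array, with circles for noggin and squares for BMP4 and a grey line over the range of the 4 arrays. Noggin replicate 1 is the rightmost point in 33 genes and BMP4 replicate 1 the leftmost in 30.

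Among the fast fibre genes, those of the troponin complex spanned wide ranges. Tnnt3, the fast troponin T that ties the complex to tropomyosin, had log2 values of 11.40 and 10.36 in the noggin arrays and 9.31 and 10.69 in the BMP4 arrays, replicates 1 and 2 in that order here and below. Tnni2, the fast inhibitory subunit, read 10.55 and 9.29 in noggin and 8.73 and 9.80 in BMP4. Tnnc2, the fast calcium-binding subunit, read 10.68 and 9.87 in noggin and 9.08 and 10.22 in BMP4. In each of these 3 genes BMP4 replicate 2 lay between the noggin arrays, so the groups overlapped.

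The fast motor genes followed the same order of arrays. Mylpf, the regulatory light chain of fast myosin, read 9.91 and 8.85 in noggin and 7.90 and 9.28 in BMP4. Myh1, a fast myosin heavy chain, read 8.18 and 6.94 in noggin and 7.17 in BMP4 replicate 2, against 6.26 in BMP4 replicate 1. Myh2, another fast heavy chain, read 8.12 and 7.66 in noggin and 7.87 in BMP4 replicate 2, and was low at 5.82 in BMP4 replicate 1 alone. That low value is below the array's median of 6.05 and may not be above background, so the size of the gap is uncertain. Myh4, the heavy chain of the fastest fibres, read 7.48 in noggin replicate 1 and 6.85 in BMP4 replicate 2, with 6.23 and 6.07 in the others. For Myh4 the high arrays were thus noggin replicate 1 and BMP4 replicate 2. The myosin heavy chains are near-identical in sequence, so a probe that binds several of them could mix their values.

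Calcium handling genes of fast fibres spanned similar ranges. Pvalb, the calcium buffer parvalbumin, read 10.35 and 8.88 in noggin and 7.95 and 9.51 in BMP4, a 5.28-fold range from noggin replicate 1 to BMP4 replicate 1. Atp2a1, the calcium pump of the fast sarcoplasmic reticulum, read 8.56 and 7.61 in noggin and 7.07 and 7.93 in BMP4. The remaining fast genes differed less: noggin replicate 1 stood above BMP4 replicate 1 by 0.91 in Myoz1, a Z-disc protein, 0.50 in the essential light chain gene Myl1, 0.48 in the Z-disc actinin Actn3 and 0.22 in the thick filament gene Mybpc2. In Actn3 and Mybpc2 the lowest array was noggin replicate 2 rather than BMP4 replicate 1, and in Myl1 it was BMP4 replicate 2.

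Over the 13 fast genes, the median noggin minus BMP4 difference was 0.63, with 11 higher by mean in noggin. It was 0.10 without BMP4 replicate 1, 0.15 without noggin replicate 1, 1.06 without noggin replicate 2 and 1.20 without BMP4 replicate 2. Between the intermediate arrays noggin replicate 2 was below BMP4 replicate 2 in 11 of 13, by a median of -0.34. The between-line value for fast genes was therefore carried by noggin replicate 1 and BMP4 replicate 1. Its sign turned without both, a choice of arrays made after the values were seen.

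The slow fibre genes held the widest single gap of the list. Myl2, the regulatory light chain of slow and ventricular myosin, read 8.90 and 8.60 in noggin and 5.24 and 7.90 in BMP4. The noggin arrays lay above both BMP4 arrays for Myl2, and the gap from BMP4 replicate 1 to noggin replicate 1 was 3.66. The value of 5.24 is below that array's median of 6.05 and may not be above background, which leaves the size of the gap uncertain. Tnnc1, the slow and cardiac troponin C, read 9.68 and 9.08 in noggin and 6.80 and 8.97 in BMP4, so that noggin replicate 2 and BMP4 replicate 2 were separated by only 0.11. BMP4 replicate 1 was thus far below the other 3 arrays in both genes.

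The other slow genes spanned less. Tnnt1, the slow troponin T, read 8.59 and 7.91 in noggin and 6.92 and 8.38 in BMP4. Tnni1, the slow inhibitory subunit, read 6.96 and 6.68 in noggin and 6.54 and 6.92 in BMP4, and Myh7, the slow heavy chain, read 6.34 and 6.16 in noggin and 5.82 and 6.29 in BMP4. In all 5 slow genes noggin replicate 1 was the highest and BMP4 replicate 1 the lowest array. Their median difference of 0.60 between the lines became -0.04 without BMP4 replicate 1, 0.26 without noggin replicate 1, 0.95 without noggin replicate 2 and 1.33 without BMP4 replicate 2.

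Fast and slow genes for the same subunit were set side by side. From BMP4 replicate 1 to noggin replicate 1 the gap was wider in the slow gene for troponin C, at 2.88 in Tnnc1 against 1.60 in Tnnc2, and for the regulatory light chain, at 3.66 in Myl2 against 2.01 in Mylpf. It was wider in the fast gene for troponin I, at 1.83 in Tnni2 against 0.42 in Tnni1, for troponin T, at 2.09 in Tnnt3 against 1.67 in Tnnt1, and for the heavy chain, at 1.41 in Myh4 against 0.52 in Myh7. These are single-array gaps with no replicate. The paired probe sets differ in brightness, and in each pair the slow gene was the dimmer by mean over the arrays. That includes Tnnc1, at 8.64 against 9.96 in Tnnc2, and Myl2, at 7.66 against 8.99 in Mylpf, where the slow gene had the wider gap. RMA compresses the changes of dim probe sets, so these gaps do not rank the fibre types. Within the noggin line the median gap from replicate 2 to replicate 1 was 0.95 in fast and 0.30 in slow genes. Within the BMP4 line the gap from replicate 1 to replicate 2 was 0.91 in fast and 1.46 in slow genes. The difference between the fibre types was not tested.

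**Figure D2:**
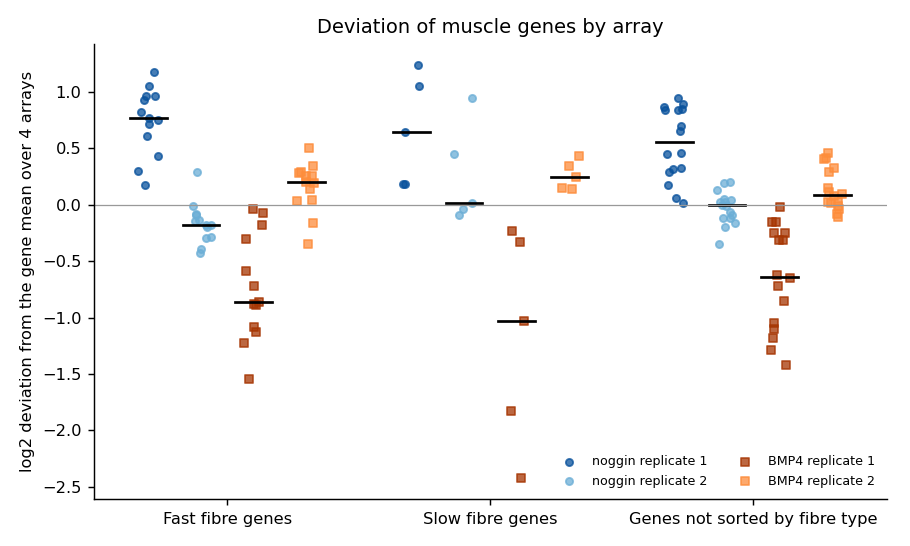
Log2 deviation of each muscle gene from its own mean over the 4 arrays, by fibre type and array, with a black bar at the median of each column. The medians of fast, slow and unsorted genes are 0.77, 0.64 and 0.55 in noggin replicate 1 and -0.87, -1.03 and -0.64 in BMP4 replicate 1.

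Among the genes not sorted by fibre type, the giant proteins and actin followed the same course. Acta1, the skeletal actin, read 9.43 and 8.73 in noggin and 7.12 and 8.87 in BMP4. Neb, nebulin, which runs along the thin filament, read 9.34 and 8.52 in noggin and 7.21 and 8.91 in BMP4. Ttn, titin, which spans the sarcomere from Z-disc to M-line, read 8.56 and 7.86 in noggin and 6.75 and 8.27 in BMP4. In all 3 genes BMP4 replicate 2 stood above noggin replicate 2, and BMP4 replicate 1 stood at least 1.11 below every other array.

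Oxygen storage, calcium storage and Z-disc genes belonged to the same set. Mb, myoglobin, the oxygen store of muscle, read 9.34 and 8.50 in noggin and 7.29 and 8.77 in BMP4. Casq1, the calcium-binding protein of the sarcoplasmic reticulum, read 8.24 and 6.95 in noggin and 6.25 and 7.76 in BMP4, the widest excess of BMP4 replicate 2 over noggin replicate 2 in the list, at 0.80. Myot, the Z-disc protein myotilin, read 7.93 and 7.33 in noggin and 6.42 and 7.42 in BMP4. Tcap, the titin cap, stood out in noggin replicate 1 alone, at 7.37 against 6.33 in noggin replicate 2 and 5.88 and 6.54 in BMP4.

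Of the energy genes, Eno3 spanned as much as these Z-disc genes and the others less. Eno3, the muscle enolase, read 8.82 and 7.97 in noggin and 7.26 and 7.87 in BMP4, and its groups did not overlap. Cox6a2, the muscle form of a cytochrome oxidase subunit, and Pygm, the muscle glycogen phosphorylase, each stood 0.77 higher in noggin replicate 1 than in BMP4 replicate 1. Ckm, the muscle creatine kinase, read 7.56 and 7.12 in noggin and 7.09 and 7.21 in BMP4, a gap of 0.47 from highest to lowest.

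The remaining members spanned less than 1 log2 unit. Tpm2, a tropomyosin, was bright and nearly level, with 10.21 and 10.18 in noggin and 10.12 and 10.06 in BMP4. Des, the intermediate filament protein desmin, was below the median of each array, at 5.51 and 5.62 in noggin and 5.24 and 5.60 in BMP4. From BMP4 replicate 1 to noggin replicate 1 the calcium release channel Ryr1 differed by 0.54, the Z-disc gene Ldb3 by 0.33 and the actin-binding gene Xirp2 by 0.95. The 28 members with a mean above the array medians had a median gap of 1.64 between these arrays, and the 6 dimmer ones, Myl1, Myoz1, Mybpc2, Des, Ryr1 and Xirp2, had 0.52. RMA compresses the changes of dim probe sets, and detection above background is unknown, so a small gap in a dim gene has no settled size.

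**Figure D3:**
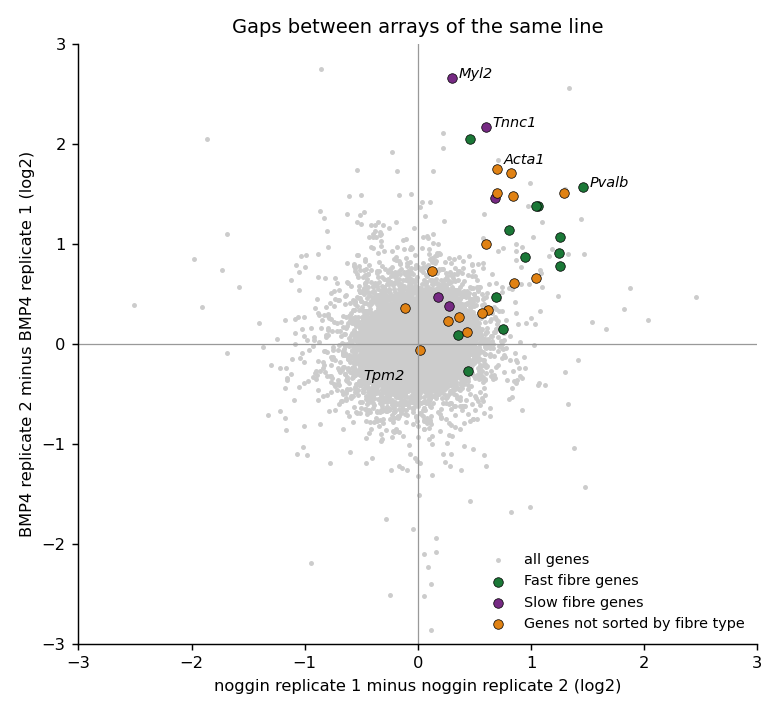
Gap between the noggin arrays (x axis, replicate 1 minus 2) against the gap between the BMP4 arrays (y axis, replicate 2 minus 1), both in log2 units, for all genes in grey and the muscle genes in colour, with 26 genes outside the axes. Most muscle genes lie in the upper right, with Pvalb at 1.46 and 1.57, while Tpm2 lies at 0.02 and -0.06.

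No muscle gene was called different between noggin and BMP4 epidermis. Limma, fitted over all 35556 probe sets, called 0 of the 34 genes at a Benjamini-Hochberg adjusted p under 0.05, and 0% of all probe sets passed. Adjusted p lay between 0.905 and 1 over the members. At an unadjusted p under 0.05 limma gave 0 members, against 2.18% of all genes higher in noggin and 2.1% higher in BMP4. The smallest unadjusted p was 0.08 for Myl2, 4.54-fold higher in noggin by group means with a 95% interval from -0.41 to 4.78 on the log2 scale. For Acta1 the difference was 1.09, from -0.74 to 2.92, and for Tnnt3 it was 0.87, from -0.81 to 2.56. These intervals span a large rise and a fall alike, so the arrays do not show that the lines were equal.

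By group means 32 of 34 members were higher in noggin, against 47.8% of all genes, and Myh2, Myl2, Tnnc1 and Acta1 were so by at least 1 log2 unit, against 0.271% of all genes. The exceptions were Actn3 and Mybpc2 at -0.10 and -0.0035. Since the members share their arrays, this count does not measure 34 separate differences. The noggin arrays were both above the BMP4 arrays in 7 genes, Myl1, Myoz1, Myl2, Tnnc1, Tpm2, Xirp2 and Eno3, or 20.6% of members against 15.7% of all genes, and the reverse was seen in 0 members against 17.9%. An exact two-sided permutation test of 2 arrays against 2 cannot go below p = 0.333.

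The median difference over the 34 genes was 0.12 without BMP4 replicate 1, 0.17 without noggin replicate 1, 1.03 without noggin replicate 2 and 1.07 without BMP4 replicate 2. With noggin replicate 2 and BMP4 replicate 2 only, a choice made after the values were seen, it was -0.21, or -0.34 in fast and -0.13 in slow genes. Leaving out 1 array turned the sign for 12 of the 34 genes, among them Ttn at -0.055 and Casq1 at -0.16 without BMP4 replicate 1, and Myh4 at -0.23 without noggin replicate 1.

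Muscle genes outside the 34 varied this way in part. Of 24 further sarcomere genes measured, 10 had noggin replicate 1 highest and BMP4 replicate 1 lowest, with a median gap of 0.19 between these arrays. The M-line gene Myom1 read 5.97 and 5.64 in noggin and 5.27 and 6.04 in BMP4, and Myom2 stayed between 5.27 and 5.45. Of 15 genes of muscle metabolism, 11 showed that order, with a median gap of 0.50. Ampd1, the muscle AMP deaminase, read 7.25 and 6.01 in noggin and 5.93 and 6.41 in BMP4, and Pgam2, the muscle phosphoglycerate mutase, read 8.89 and 7.80 in noggin and 7.25 and 7.96 in BMP4.

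Of 18 genes of excitation and the muscle membrane, 3 showed that order, and of 8 further genes known for slow fibres, 2 did. The voltage sensor gene Cacna1s stayed between 5.66 and 6.01, and the light chain gene Myl3 between 6.37 and 6.79. The slow genes were uneven. Mybpc1, picked after its values were seen, showed the order, at 8.16 and 7.14 in noggin and 6.49 and 7.55 in BMP4. Atp2a2, picked likewise, was bright and level between 10.97 and 11.03. Trdn, triadin, which anchors calsequestrin beside the calcium release channel, was picked after its values were seen and read 10.44 and 9.34 in noggin and 8.53 and 9.75 in BMP4. Of 21 myogenic regulators, fetal myosins and receptor genes of the neuromuscular junction, 5 showed the order and the median gap was 0.061. Myod1, a master regulator of myogenesis, lay between 6.53 and 6.73, and Myf5, another, between 3.91 and 4.10, below the lower quartile of each array. Limma passed 0 of these 86 genes at an adjusted p under 0.05, and at an unadjusted p under 0.05 it gave 3 higher in noggin (Cox7a1, Ckmt2 and Myf6) and 2 higher in BMP4 (Fbp2 and Fhl3), near the 2.18% and 2.1% of all genes.

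Across these muscle genes, the order of the arrays was thus most frequent in the listed members and in muscle metabolism. Summed on the linear scale, the intensities of the 34 members came to 16900 and 9680 in noggin and 5580 and 11400 in BMP4. For fast genes the sums were 9510, 4590, 2610 and 6050 in the same order of arrays, and for slow genes 1890, 1350, 420 and 1270.

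Markers of other tissues were read beside these genes. The summed intensity of 17 keratinocyte markers, lay between 75500 and 76300 over the 4 arrays. Krt14, the basal keratin whose promoter drives the transgenes, lay between 12.25 and 12.42 in log2, and its partner Krt5 between 12.37 and 12.58. The sum is carried by keratins near the top of the intensity scale, and single markers of the list varied more. Krt77, a keratin also found in sweat ducts and chosen here after its values were seen, read 8.65 and 7.31 in noggin and 6.94 and 9.50 in BMP4, and Krt15, chosen likewise, lay between 9.86 and 10.61. Dermal fibroblast markers were lowest in BMP4 replicate 1 for 15 of 17 genes, with sums of 5610 and 6130 in noggin and 4420 and 6500 in BMP4. Noggin replicate 1 was the highest array for 3 of those 17, and Col1a1 lay between 7.34 and 7.51. Single markers of this list varied more. Postn, picked after its values were seen, read 7.82 and 9.68 in noggin and 6.37 and 8.42 in BMP4. Dcn, picked likewise, was the brightest of the list, between 11.15 and 11.60, and weighs most in the sums. Fibroblast markers thus shared the low array of the muscle genes but not the high one.

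Smooth muscle markers were highest in noggin replicate 1 for 10 of 12 genes and summed to 1560 and 1050 in noggin and 983 and 1350 in BMP4. These sums stood in the same order as the muscle sums. Of the 12, 5 also had BMP4 replicate 1 lowest, and 9.62% of all genes showed both. BMP4 replicate 2 lay above noggin replicate 2 in 12 of 12, against 56.1% of all genes. Acta2, the smooth muscle actin, read 8.94 and 8.07 in noggin and 7.80 and 8.64 in BMP4. Adipocyte markers summed to 1280 and 826 in noggin and 779 and 1190 in BMP4, the same order as the muscle sums. Noggin replicate 1 was highest for 4 of 11, and 3 of 11 also had BMP4 replicate 1 lowest. The order of these sums depends on Car3, picked after its values were seen. Car3 read 8.76 and 7.43 in noggin and 7.26 and 8.16 in BMP4. Adipoq was instead highest in BMP4 replicate 2, at 7.28 against 6.68 in noggin replicate 1. Endothelial markers summed to 1060 and 941 in noggin and 915 and 1040 in BMP4, the muscle order over a narrower range. Of 13 endothelial markers, 4 had noggin replicate 1 highest and BMP4 replicate 1 lowest. Cardiac markers stayed between sums of 1410 and 1550 and nerve and Schwann cell markers between 1050 and 1270. Sweat gland markers stayed between sums of 2780 and 3310, but single markers of that list, which also holds Krt77, varied more. Scgb1a1, picked after its values were seen, read 7.87 and 6.88 in noggin and 7.36 and 5.73 in BMP4. The 3 measured erythroid markers summed to between 193 and 228.

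Of these lists, no gene is listed at 0, since RMA gives each probe set a value, and 1 nerve and Schwann cell marker lay below the lower quartile on all arrays. The part of the amount of subepidermal tissue in the strips, or of any other feature of the pools, in the muscle values was not tested. In pooled tissue, fewer cells of a type and less RNA per cell cannot be told apart.

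**Figure D4:**
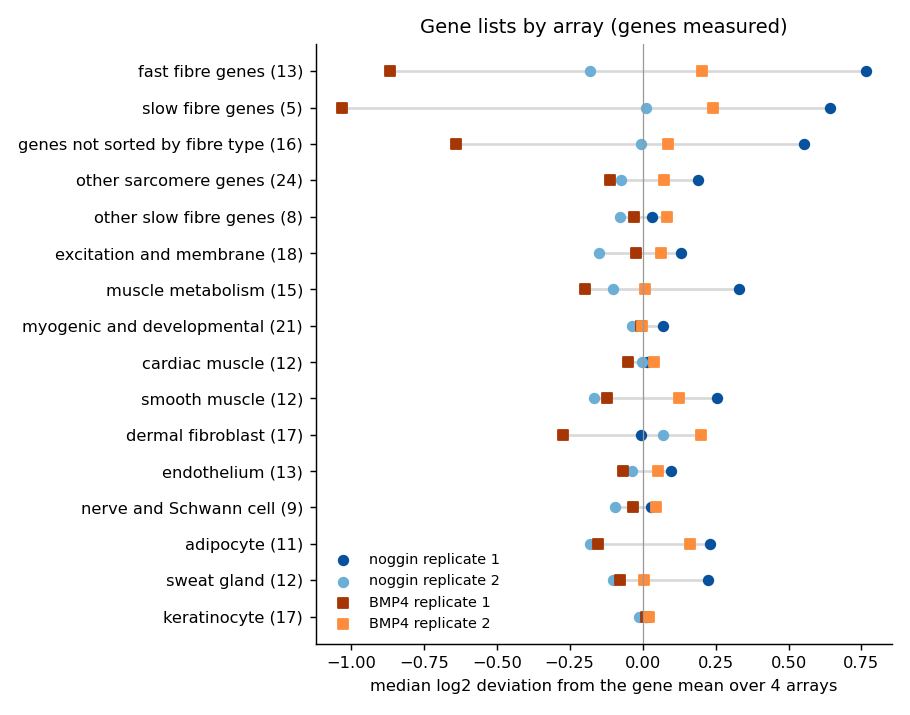
Median log2 deviation from the gene mean over the 4 arrays for each gene list and array, with the number of measured genes in brackets. The medians of fast and slow fibre genes span -1.03 to 0.77, while the medians of the 17 keratinocyte markers span -0.012 to 0.021.

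Few genes of the whole array shared so wide a gap. Noggin replicate 1 lay at least 1 log2 unit above BMP4 replicate 1 in 158 genes, or 0.792%, and 20 of these were members. Another 14 were among the 86 muscle and myogenic genes outside the list. The gap was thus not particular to the members. Among the 42 genes in which noggin replicate 1 was highest, BMP4 replicate 1 lowest and the gap at least 1.5, 17 were members. Within the BMP4 line, replicate 2 exceeded replicate 1 by at least 1 in 79 genes, 14 of them members, and within the noggin line replicate 1 exceeded replicate 2 by at least 1 in 42 genes, 8 of them members.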

How the data were processed

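Each array held RNA of a pool of 3 animals, amplified by the NuGEN pico protocol per the labels' protocols. The authors deposited log2 intensities of probe sets, made with Affymetrix Expression Console and RMA, per the submitters' processing notes, which give no versions or settings. RMA evens out overall signal between arrays. Scan dates were not used here, and precision is limited by how few arrays there are.

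All 35556 probe sets were fitted with limma 3.58.1 in R 4.3.3 (a term for group only, two-sided tests, 2 residual and 2.08 prior degrees of freedom), with Benjamini-Hochberg adjustment over all of them. The code was tested on simulated data. Of the probe sets, 21789 have 1 gene symbol, 1621 several and 12146 none here. Each gene takes the value of its brightest probe set by mean, and 0 of the 34 members have more than 1. Folds are 2 to the power of a log2 difference. Lists were described, not tested.

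The members and lists were chosen with earlier results of these data known. Every member was named, and of other lists the first 2 measured genes or fewer, unless a gene is said to be picked after its values were seen or passed an unadjusted p of 0.05. Promoters are RefSeq's for GRCm38.p6, and motifs were searched on both strands. Alternatives tried were a block for the replicate number, other scalings, priors and probe set rules, a filter on dim probe sets and leaving out each array. Replicate numbers were not taken as pairs, because deviations of same-numbered arrays correlated at -0.12 over all probe sets and no label says that a number marks a shared litter or day. Figures used matplotlib 3.10.9 in Python 3.11.15.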

Additional observations from a re-analysis of the deposited data

How the results depend on the processing

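Limma called 0 probe sets under each of the 13 alternatives, with the replicate number as a block (replicate block, 0 calls and 1736 at an unadjusted p under 0.05, against 1994 without it) and with the crossed pairing of numbers, chosen after seeing the data (0 calls, 2441 unadjusted). The block changed no call. Across all 13, the counts at an unadjusted p under 0.05 lay between 1123 and 2455. The dim filter, averaging the probe sets of a gene and the scalings by median, quantiles or cyclic loess kept the median differences of all, fast and slow members between 0.59 and 0.73. On leaving out 1 array the median ranged from 0.12 to 1.07 over all members, from 0.10 to 1.20 over fast and from -0.041 to 1.33 over slow genes. With replicate 2 of each line only, an alternative added after seeing the data, the medians turned to -0.21, -0.34 and -0.13. The count of members with groups that do not overlap in either direction, 7 of 34 against 33.6% of all genes, was 4 of 28 with dim probe sets left out, against 34.9%. On leaving out 1 array it ranged from 7 to 33 of 34, and the share of all genes from 64.1% to 70.8%. It was 7 without BMP4 replicate 1, 10 without noggin replicate 1, 33 without noggin replicate 2 and 32 without BMP4 replicate 2. It could not be had for the replicate block. Mybpc2 turned to 0.015 under cyclic loess. The differences of the 12 members whose sign turned without 1 array ranged from -0.23 to 1.02 for Myh4, -0.45 to 0.25 for Actn3, -0.18 to 0.17 for Mybpc2, -0.041 to 0.43 for Myh7, -0.12 to 1.33 for Tnnt1, -0.10 to 0.28 for Tnni1, -0.022 to 0.41 for Ckm, -0.038 to 0.32 for Des, -0.055 to 1.46 for Ttn, -0.16 to 1.35 for Casq1, -0.050 to 0.21 for Ldb3 and -0.017 to 0.60 for Pygm. The other 22 kept their sign without each array. Detection above background is unknown, which limits Myl1, Des and Xirp2 most, since they lay below the array median throughout.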

Other observations

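The order of arrays seen in muscle genes was shared by some genes of other kinds, chosen here after their values were seen. In some of them BMP4 replicate 1 was lowest and the noggin arrays were close together. Cd74, the MHC class II invariant chain, read 9.0 and 8.86 in noggin and 6.72 and 8.44 in BMP4, Tyrobp, a myeloid signalling adaptor, 9.70 and 9.67 in noggin and 7.86 and 9.27 in BMP4, and Csf1r, the macrophage growth factor receptor, 7.73 and 7.71 in noggin and 6.06 and 7.43 in BMP4. Sprr2d, a cornified envelope precursor of keratinocytes, read 11.60 and 11.38 in noggin and 8.46 and 10.57 in BMP4. In these 4 genes noggin replicate 1 and replicate 2 differed by at most 0.22, unlike the fast fibre genes.

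A few single genes had noggin replicate 1 apart from replicate 2 as well. Elovl3, a fatty acid elongase, read 6.71 and 5.27 in noggin and 4.61 and 5.86 in BMP4, and Fa2h, a fatty acid hydroxylase, 8.92 and 7.94 in noggin and 6.97 and 8.35 in BMP4. Myl9, a regulatory light chain of smooth muscle and non-muscle myosin, read 8.65 and 7.34 in noggin and 7.03 and 8.58 in BMP4, and Klhl31, a muscle-enriched kelch protein, 7.08 and 5.90 in noggin and 5.40 and 6.35 in BMP4. Fbp2, the muscle form of fructose bisphosphatase, went against the muscle genes, at 7.26 and 7.48 in noggin and 8.28 and 8.04 in BMP4 (limma, unadjusted p = 0.00433, adjusted p = 0.732).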
